A study of Homo sapiens with 12 samples.

Results

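YAP, TAZ, the 4 TEAD proteins and the VGLL cofactors form the transcriptional end of the Hippo pathway. Their 9 genes (YAP1, WWTR1, TEAD1, TEAD2, TEAD3, TEAD4, VGLL1, VGLL3 and VGLL4) were taken by symbol from tables of 26372 gene symbols, and all 9 were found. RNA of polyadenylated transcripts had been sequenced from HCT116 cells, a human colorectal carcinoma line, either wild type (WT) or knocked out (KO) for KDM3A, a gene for a histone demethylase. Each genotype was sampled in normal medium (mock), after serum had been withdrawn (starved), and after fetal bovine serum had been given back to cells kept without it for 24 h (refed). How the knockout was made, how many clones it comprises and how long serum was present before harvest are not given in the sources used here. The labels list 12 samples in 6 groups, 2 per group, but each group had 1 column of values, named for the group and not for a replicate, so no spread between replicates could be computed. Values are FPKM, fragment counts scaled to transcript length and to the number of mapped fragments, so levels of different genes can be set side by side.

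YAP (from YAP1) and TAZ (from WWTR1) are related co-activators that cannot bind DNA themselves and reach their target genes through a TEAD protein. The Hippo kinases phosphorylate YAP and TAZ and keep them out of the nucleus, and components of serum relieve this block, so much of the pathway's control lies in the proteins and is not seen in RNA. VGLL proteins also dock on TEADs, and VGLL4 competes there with YAP and restrains target genes. In intestinal epithelium, YAP and TAZ are known for their part in regeneration and in tumour growth. The files also hold a row named TAZ, the symbol then used for tafazzin, a mitochondrial enzyme unrelated to the co-activator. It was listed at 11.2 to 13.9 FPKM and was not used.

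The sequences upstream of YAP1, WWTR1 and VGLL1 are shown first. They are the 250 bases before RefSeq start sites (build GRCh38.p14, read 5′ to 3′ on the gene's strand). The co-activator pair YAP1 and WWTR1 is shown because its members differed in opposite directions, and VGLL1 because its ratio between genotypes was large. Capitals mark CATTCC, the core of the TEAD binding motif, and GGGCGG, the GC box, on either strand (GGAATG and CCGCCC on the other).
YAP1, chr11:102110197-102110446, plus strand: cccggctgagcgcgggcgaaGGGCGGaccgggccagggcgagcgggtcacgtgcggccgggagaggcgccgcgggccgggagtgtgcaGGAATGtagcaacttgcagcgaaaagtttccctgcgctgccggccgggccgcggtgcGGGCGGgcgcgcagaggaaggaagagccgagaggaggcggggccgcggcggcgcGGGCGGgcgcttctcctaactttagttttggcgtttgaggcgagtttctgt
WWTR1, outer start in the table, chr3:149703274-149703523, minus strand: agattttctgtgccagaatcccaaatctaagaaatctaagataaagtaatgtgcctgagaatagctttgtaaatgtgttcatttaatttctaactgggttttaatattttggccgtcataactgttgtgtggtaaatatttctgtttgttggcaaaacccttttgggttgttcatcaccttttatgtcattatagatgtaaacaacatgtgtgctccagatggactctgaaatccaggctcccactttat
WWTR1, inner start in the table, chr3:149658026-149658275, minus strand: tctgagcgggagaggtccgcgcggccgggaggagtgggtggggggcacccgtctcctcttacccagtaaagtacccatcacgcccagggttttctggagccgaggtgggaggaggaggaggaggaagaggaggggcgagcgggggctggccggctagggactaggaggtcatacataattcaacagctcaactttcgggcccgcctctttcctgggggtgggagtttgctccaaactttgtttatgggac
VGLL1, chrX:136531965-136532214, plus strand: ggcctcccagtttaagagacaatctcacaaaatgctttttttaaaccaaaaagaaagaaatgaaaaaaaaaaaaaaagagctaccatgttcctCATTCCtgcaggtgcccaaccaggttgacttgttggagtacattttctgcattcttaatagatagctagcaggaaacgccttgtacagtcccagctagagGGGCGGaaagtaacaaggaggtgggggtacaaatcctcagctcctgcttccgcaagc

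The YAP1 window was 72.0% G and C with 36 CpG pairs, and held 1 TEAD motif and 3 GC boxes. The WWTR1 windows held neither motif, and were 35.2% (outer) and 62.0% (inner) G and C, with 1 and 13 CpG pairs. The VGLL1 window was 43.6% G and C with 3 CpG pairs and held 1 of each motif. Of the 9 genes, 7 had entries, with 13 windows in all, and TEAD1 and TEAD4 had none. CATTCC was in 2 of the 13 windows and in 11.9% of the 35116 windows of all genes in the table. GGGCGG was in 8 of 13 and in 42.6% of all, TATAAA (the TATA box) in 1 of 13 and 10.7%, and TGANTCA (the AP-1 motif) in 0 of 13 and 6.57%. These are matches of letters only, in windows of a later genome build than the hg19 alignment, and the FPKM values do not tell which start was used.

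The tests took in 13456 features that reached 1 FPKM in any group, among them 7 of the 9 genes. VGLL1 and VGLL3 were below that level in every group. In WT the order of the means over the 3 states was WWTR1 (15.2 ± 6.26 FPKM, SD over n = 3 states), VGLL4 (14.9 ± 0.555), TEAD2 (13.8 ± 0.863), TEAD3 (11.5 ± 0.887), YAP1 (11.1 ± 0.771), TEAD4 (7.61 ± 1.09) and TEAD1 (6.52 ± 0.865). The range of WWTR1 over states (11.3 to 22.4 FPKM) overlapped those of VGLL4, TEAD2, TEAD3 and YAP1, and the ranges of TEAD3 and YAP1 and of TEAD4 and TEAD1 overlapped each other. In KO the order was VGLL4 (26.3 ± 3.88 FPKM, SD over n = 3 states), YAP1 (15.1 ± 0.596), TEAD2 (13.5 ± 2.61), TEAD3 (13.2 ± 0.191), TEAD4 (10.9 ± 1.06), TEAD1 (7.88 ± 1.30) and WWTR1 (5.85 ± 1.69). There the range of TEAD2 overlapped those of YAP1, TEAD3 and TEAD4, and that of TEAD1 overlapped that of WWTR1. WWTR1 had the lowest mean of the 7 in KO. Its first place in WT came from the mock column alone, since in starved and refed WT cells (11.3 and 11.8 FPKM) it was below VGLL4 (14.6 and 14.7) and TEAD2 (14.0 and 14.5).

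**Figure D1:**
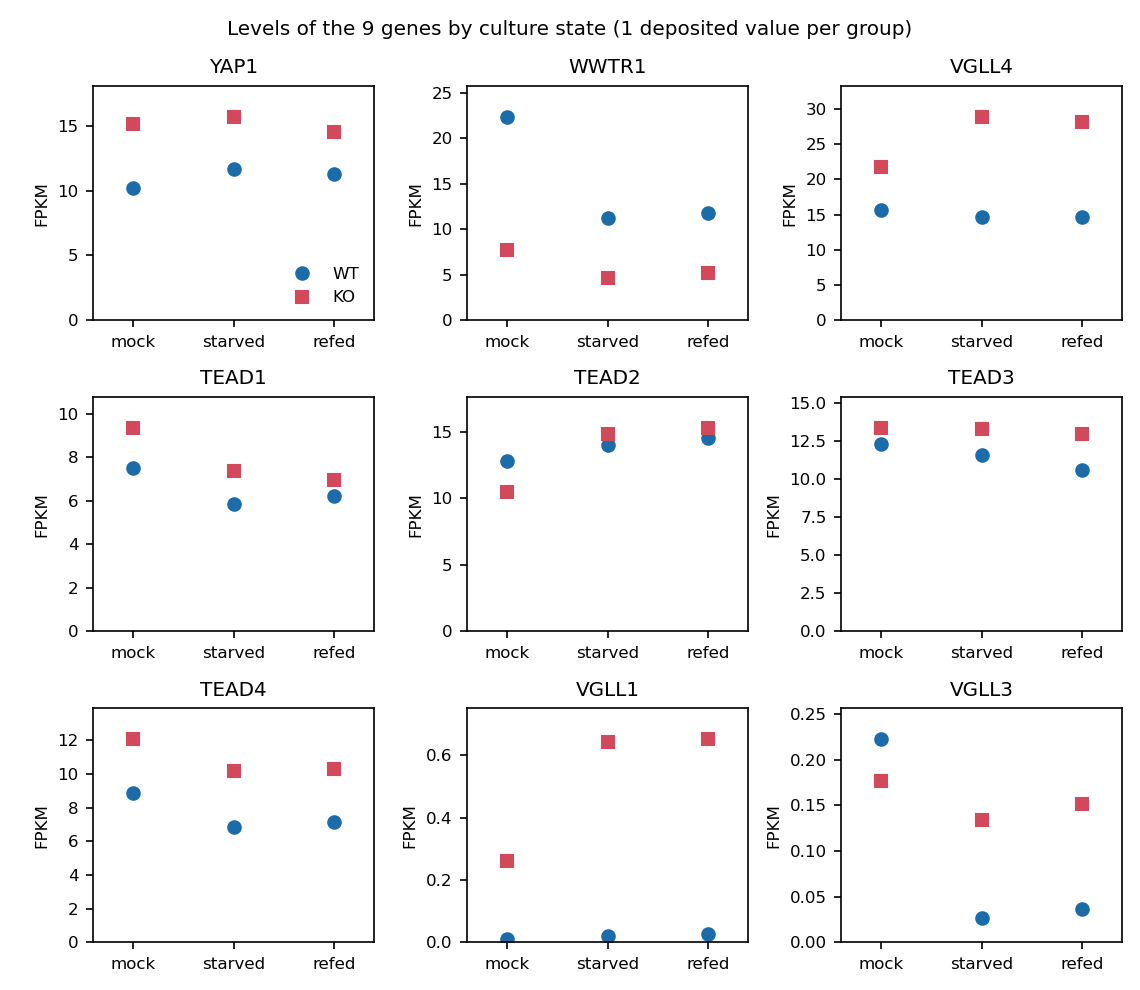
FPKM of each gene (vertical axes from 0, each with its own range) in mock, starved and refed cells, circles for WT and squares for KO, 1 value per group. WWTR1 was lower and YAP1, TEAD3, TEAD4 and VGLL4 were higher in KO than in WT without overlap, while TEAD1 and TEAD2 overlapped.

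The first comparison, KO with WT cells, addresses which of these transcripts differ when KDM3A is lost. WWTR1 was lower in KO and VGLL4, TEAD4, YAP1 and TEAD1 were higher. The knockout itself was visible in the KDM3A transcript, at 41.3, 17.8 and 19.8 FPKM in WT mock, starved and refed cells and at 3.15, 3.01 and 3.59 in KO. Over the 3 states, limma's test with Benjamini-Hochberg adjustment over all features found that 4 of the 7 tested genes rose and 1 fell in KO. Among all features 28.7% rose and 4.58% fell, 33.3% in either direction. Counted without a test, all 3 KO values lay above all 3 WT values in 4 of the 7 genes and below them in 1, against 25.5% and 6.09% of all features. The spread used by this test is the unevenness of a difference across states (2 residual degrees of freedom), not replicate error. The median log2 difference was 0.24 for the 7 genes and 0.16 for all features.

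Among the co-activators, the WT levels of WWTR1 were 22.4 (mock), 11.3 (starved) and 11.8 FPKM (refed), against 7.77, 4.61 and 5.16 in the same KO states. Every KO value lay below every WT value. KO had 0.347, 0.409 and 0.436 times the WT level in mock, starved and refed cells, and WWTR1 fell by 1.20 on the log2(FPKM + 1) scale over the states (SE 0.09, limma adjusted p = 0.00432). It was the only one of the 7 genes that differed at least 2-fold on FPKM + 1 in any state, and it was lower in all 3, as 0.602% of all features were (1.27% were higher in all 3). In single states, 3.22% (mock), 1.46% (starved) and 1.51% (refed) of features were lower by that much and 2.27%, 2.59% and 3.41% higher. Only 1.95%, 1.21% and 1.36% of features had a lower KO-to-WT difference in mock, starved and refed cells.

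YAP1 went the other way. It was at 10.2, 11.7 and 11.3 FPKM in WT mock, starved and refed cells and at 15.1, 15.7 and 14.5 in KO, without overlap. It rose by 0.41 on the log2 scale (SE 0.06, limma adjusted p = 0.0153). This is a smaller difference, and the shift of all features counts in it: after median-ratio rescaling, which brings the median of all features from 0.16 to 0.00, YAP1 differed by 0.23 (limma adjusted p = 0.119).

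The 2 opposite differences changed the balance within the pair, and a share within a group does not depend on how the groups are scaled. WWTR1 made up 68.6%, 49.1% and 51.1% of the summed YAP1 and WWTR1 FPKM in WT mock, starved and refed cells and 34.0%, 22.7% and 26.2% in KO. The sum of both was 32.6, 23.0 and 23.2 FPKM in WT cells and 22.8, 20.3 and 19.7 in KO. Both the share and the sum were lower in every KO group than in every WT group, and the sums lay closest in starved and refed cells. These shares and sums have no test, since each group has 1 value.

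The TEAD genes encode the DNA-binding partners of YAP and TAZ and are close paralogs, so reads could be split between them. TEAD4, known from the trophectoderm, was at 8.85, 6.85 and 7.12 FPKM in WT mock, starved and refed cells and at 12.1, 10.2 and 10.3 in KO. Its KO values all lay above its WT values, and it rose by log2 0.47 (SE 0.05, limma adjusted p = 0.00960). TEAD1, known from heart development, was at 7.50, 5.85 and 6.20 FPKM in WT cells and 9.36, 7.35 and 6.93 in KO. It was higher in KO in each state, although the ranges overlapped across states, and it rose by log2 0.24 (SE 0.06, limma adjusted p = 0.0415). After median-ratio rescaling the TEAD1 difference was 0.07 (limma adjusted p = 0.529), and that of TEAD4 was 0.29 (limma adjusted p = 0.0206).

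TEAD3, known from the placenta, was at 12.3, 11.6 and 10.6 FPKM in WT cells and 13.4, 13.3 and 13.0 in KO, and its log2 difference of 0.19 did not pass (SE 0.06, limma adjusted p = 0.0729). TEAD2, known from early embryos, was at 12.8, 14.0 and 14.5 FPKM in WT cells and 10.5, 14.8 and 15.3 in KO. It was lower in KO only in mock culture, and the averaged difference of -0.04 did not pass (SE 0.09, limma adjusted p = 0.741), though it did after upper-quartile rescaling (-0.25, limma adjusted p = 0.0463). Summed over the 4 genes, TEAD transcripts were at 41.5, 38.3 and 38.4 FPKM in WT mock, starved and refed cells and at 45.3, 45.7 and 45.5 in KO. TEAD2 and TEAD3 together held most of that sum in every group: TEAD2 had 23.2% (KO mock) to 37.8% (WT refed) and TEAD3 27.5% to 30.4%, TEAD4 17.9% to 26.7% and TEAD1 15.2% to 20.6%.

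Among the VGLL cofactors, VGLL4 was at 15.6, 14.6 and 14.7 FPKM in WT mock, starved and refed cells and at 21.8, 28.9 and 28.1 in KO. The KO values lay above all WT values, and VGLL4 rose by log2 0.77 (SE 0.11, limma adjusted p = 0.0148). KO had 1.40 times the WT level in mock cells and 1.98 and 1.92 times in starved and refed cells. In those states 97.1% and 95.6% of features had a smaller KO-to-WT difference. After median-ratio rescaling the averaged difference was 0.58 (limma adjusted p = 0.0177).

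VGLL4 relative to the TEADs was nearly constant in WT, at 0.375, 0.380 and 0.381 times the summed TEAD FPKM in mock, starved and refed cells, and was 0.481, 0.632 and 0.618 in KO. Relative to the summed co-activators the WT ratios were 0.477, 0.633 and 0.633, and those of KO 0.955, 1.42 and 1.43. In KO starved and refed cells there was thus more VGLL4 transcript than YAP1 and WWTR1 transcript together, which was not so in any WT group or in KO mock. The co-activator sum was 0.786, 0.600 and 0.602 times the TEAD sum in WT cells and 0.503, 0.444 and 0.432 in KO. No protein was measured.

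**Figure D2:**
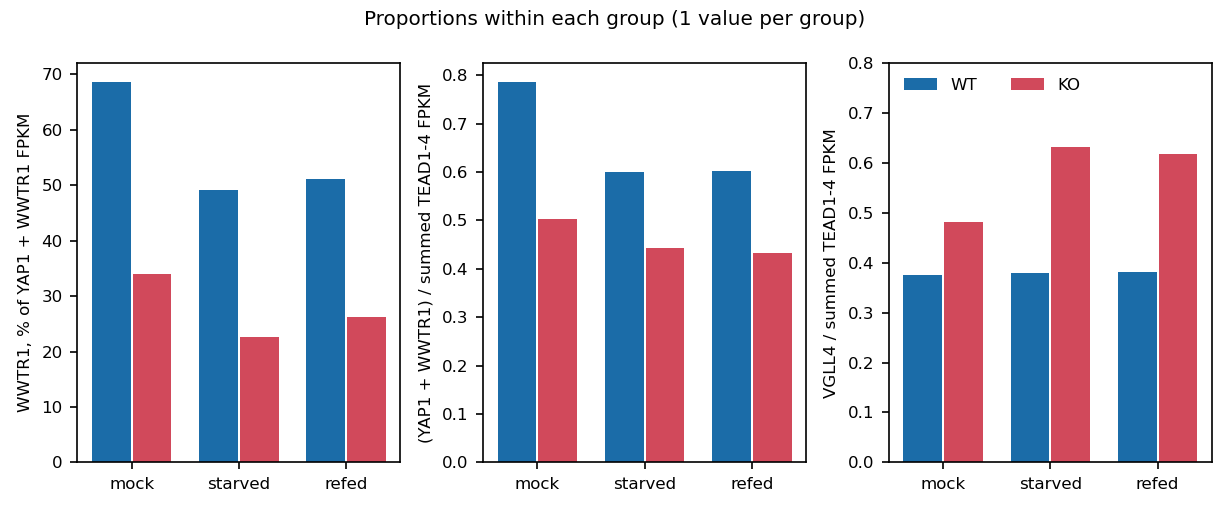
Bars give, for WT and KO in each culture state, WWTR1 as a percentage of YAP1 plus WWTR1 FPKM (left), the co-activator sum over the TEAD sum (middle) and VGLL4 over the TEAD sum (right), 1 value per group and axes from 0. The first 2 proportions were lower and the third higher in KO in every state.

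VGLL1, a TEAD-binding cofactor known from placenta and some carcinomas, was at 0.0115, 0.0219 and 0.0256 FPKM in WT cells and 0.262, 0.642 and 0.654 in KO. The KO values were 22.8, 29.3 and 25.6 times those of WT, but all 6 lie below the level at which features were tested. When every feature above 0 in some group was tested, VGLL1 differed by 0.56 on the log2(FPKM + 1) scale (limma adjusted p = 0.0399), a scale that understates ratios at such levels. VGLL3, known as a cofactor in mesenchymal cells, was at 0.223, 0.0262 and 0.0371 FPKM in WT cells and 0.177, 0.134 and 0.151 in KO, with overlap, and differed by 0.08 in that fit (limma adjusted p = 0.352). VGLL2, the remaining family member, was listed at 0 in all 6 groups.

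**Figure D3:**
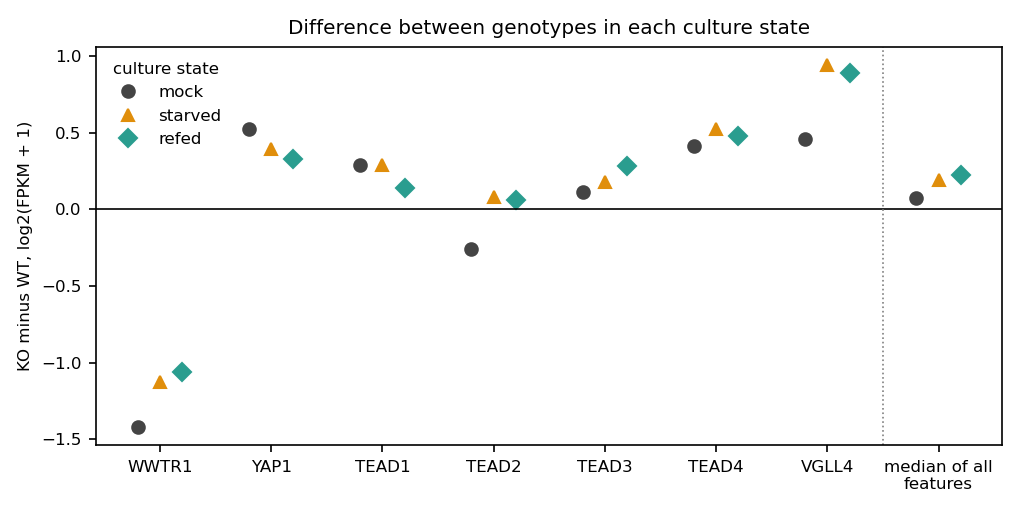
Difference KO minus WT on the log2(FPKM + 1) scale for the 7 tested genes and the median of all 13456 features, with 1 point for mock (circle), starved (triangle) and refed (diamond) cells. WWTR1 lay at -1.42 to -1.06 and VGLL4 at 0.46 to 0.94, while the median of all features was 0.07 to 0.22.

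The calls need the starved and refed values of both genotypes. Without WT starved, WT refed, KO starved or KO refed in turn, 1 residual degree of freedom is left and 0 of the 7 genes passed limma's test (4, 5, 4 and 5 at an unadjusted p under 0.05), while 5, 25, 6 and 32 of all features passed. The averaged WWTR1 difference was then -1.24, -1.27, -1.24 and -1.27, and that of VGLL4 0.68, 0.70, 0.68 and 0.70. Without WT mock or KO mock 1 residual degree of freedom is left as well, but 4 of the 7 genes and 42.5% of all features passed.

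The labelled cell type was checked against marker lists. All 9 epithelial markers, EPCAM, CDH1 and keratins among them, were at 1 FPKM or more in every group. By limma all 9 rose in KO, as did 28.7% of all features. The median log2 difference of the 9 was 0.87, against 0.16 for all features. Their summed level was 2378 to 2845 FPKM in the WT groups and 5147 to 6345 in the KO groups. KRT8 was the largest part of these sums, with 2425 FPKM in KO mock cells against 1011 in WT mock. EPCAM differed less between the same columns, with 203 against 176 FPKM. The part of the epithelial markers in the differences of WWTR1, YAP1, TEAD1, TEAD4 and VGLL4 was not tested. Of 16 endothelial markers, 16 reached 1 FPKM in the WT mock column, with VWF at 75.9 and CDH5 at 25.8 FPKM, against 3 or 4 in the other groups. Summed endothelial FPKM was 298 in WT mock and 51.4 to 95.4 elsewhere, where EGFL7 alone was at 44.2 to 84.3 and CDH5 at 0.0622 or less. Of 8 fibroblast and 6 leukocyte markers 1 each, COL1A1 and CD68, was at 1 FPKM or more in every group. Summed fibroblast markers were at 18.8 to 50.8 FPKM, leukocyte markers at 5.04 to 33.3, and PTPRC and COL1A2 were listed at 0 in all KO groups. The median log2 difference of the 16 endothelial markers was -0.78 for KO against WT (0.16 for all features) and -1.11 for starved against mock (-0.13). By limma 0 of the 16 passed in either (1 at an unadjusted p under 0.05 in each), in a fit where a signal in 1 column adds to the residual spread. The WT mock column also stood apart in short RNA features: it summed to 1149307 FPKM with them and 522229 without, against 481036 to 629410 with them in the other groups.

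WWTR1 was highest in that same column, at 22.4 FPKM, and VGLL3 too, at 0.223. The part of the endothelial markers' source, or of the short RNA, in the WT mock values of WWTR1 and VGLL3 was not tested, and in bulk RNA more cells of a type and more RNA per cell cannot be told apart. In starved and refed cells, WWTR1 was at 11.3 and 11.8 FPKM in WT cells and 4.61 and 5.16 in KO. There CDH5, PECAM1 and VWF were at 0.159 FPKM or less in both genotypes. Other markers of that list were higher in these columns: EGFL7 at 44.2 to 65.1 FPKM, ESAM at 3.69 to 4.33, MMRN2 at 1.40 to 2.49 and SOX18 at 0.981 to 1.85. With both mock groups left out, the WWTR1 difference was -1.09 (limma adjusted p = 0.0170), that of VGLL4 0.92 (limma adjusted p = 0.0175), that of TEAD4 0.50 (limma adjusted p = 0.0241) and that of YAP1 0.36 (limma adjusted p = 0.0293). TEAD1, at 0.21, then no longer passed (limma adjusted p = 0.0873). In that fit 1 residual degree of freedom was left, and 42% of all features passed. The spread it used was the unevenness of a difference between starved and refed cells.

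**Figure D4:**
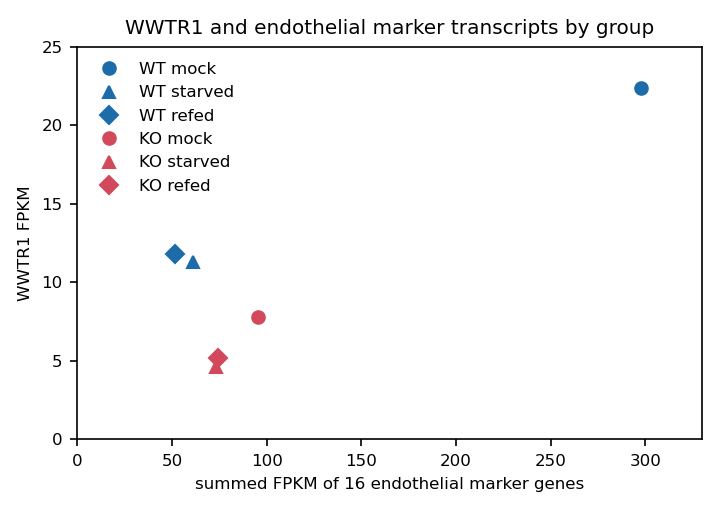
WWTR1 FPKM (vertical) against the summed FPKM of 16 endothelial marker genes (horizontal) in the 6 groups, blue for WT and red for KO, circles for mock, triangles for starved and diamonds for refed cells. WT mock stands apart at 298 and 22.4 FPKM. Among the other 5 groups WWTR1 was higher in the WT groups, at summed marker levels of 51.4 and 61.0, than in the KO groups, at 73.1 to 95.4. EGFL7 alone gave 44.2 to 84.3 FPKM of the sums in those 5 groups.

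The second comparison, of starved with mock cells, follows serum withdrawal. WWTR1 was lower in starved than in mock cells of both genotypes, at 0.504 times the mock level in WT and 0.594 times in KO. Averaged over genotypes it fell by 0.79 on the log2 scale (SE 0.11, limma adjusted p = 0.0190). TEAD1 and TEAD4 fell by 0.31 and 0.28 (limma adjusted p = 0.0425 and 0.0447), so that 0 of the 7 genes rose and 3 fell, where 5.83% and 19.4% of all features did (25.2% in either direction). The median of all features was -0.13, and after median-ratio rescaling WWTR1 fell (-0.65, limma adjusted p = 0.0136), TEAD2 rose (0.42, limma adjusted p = 0.0223), and TEAD1 and TEAD4 did not pass. Without WT mock, WWTR1 differed by -0.63 (limma adjusted p = 0.0612) and 0 of the 7 genes passed. Of all features 0.171% passed without WT mock. Without KO mock 1 of the 7 passed, as did 31.3% of all features. Without a starved or refed column 0 of the 7 passed, and at most 0.0149% of all features did, so these fits called almost nothing.

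The remaining 4 genes did not pass. YAP1 was at 1.14 times its mock level in starved WT cells and 1.04 times in KO, TEAD3 at 0.943 and 0.996 times. TEAD2 was at 1.09 times in WT and 1.41 times in KO. VGLL4 was at 0.935 times its mock level in starved WT cells and 1.32 times in KO, where it went from 21.8 to 28.9 FPKM. No gene of the 7 differed 2-fold between starved and mock cells in either genotype, where 1.03% (WT) and 0.951% (KO) of all features were higher and 3.91% and 1.18% lower.

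Refed cells were compared with starved cells to describe the response to serum. None of the 7 factor genes passed limma's test (0 also at an unadjusted p under 0.05), and 0.773% of all features rose and 0.052% fell, 0.825% in either direction. No gene of the 7 differed 2-fold, as 1.69% (WT) and 1.98% (KO) of all features did upward and 0.684% and 0.446% downward. Ratios of refed to starved levels lay between 0.909 (TEAD3 in WT) and 1.12 (WWTR1 in KO), and the log2 differences between -0.13 and 0.13. Their target CYR61, a matricellular protein, was at 7.66 FPKM in starved and 444 in refed WT cells and at 16.6 and 309 in KO, and rose by log2 4.91 over the genotypes (SE 0.48, limma adjusted p = 0.0404). CTGF, another such protein, was at 1.24 and 64.0 FPKM in WT cells and 1.20 and 5.09 in KO, and did not pass (log2 3.17, SE 1.14, limma adjusted p = 0.483). It differed 51.8-fold in WT and 4.26-fold in KO, and in this fit a response that is uneven between genotypes adds to the residual spread. The transcripts of the 7 tested factors thus stayed within 1.12-fold while CYR61 differed 57.9-fold in WT and 18.6-fold in KO. VGLL1 and VGLL3, below the tested level, were at 1.17 and 1.42 times in WT and 1.02 and 1.12 times in KO.

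Refed cells did not return to the mock values in every gene. WWTR1 was at 0.528 times its mock level in refed WT cells and 0.664 times in KO. VGLL4 was at 0.942 times in WT and 1.29 times in KO, TEAD2 at 1.13 and 1.45 times and TEAD1 at 0.828 and 0.741 times. None of the 7 differed 2-fold from mock, as 1.89% (WT) and 2.36% (KO) of all features did upward and 4.21% and 0.944% downward. Comparisons of refed with mock and of starved with mock share the mock column, and in WT that is the column with the endothelial markers.

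The other genes of the pathway were taken as 4 lists. Of 17 Hippo kinases and adaptors, all tested, 4 rose and 0 fell in KO over the states, beside 28.7% and 4.58% of all features. WWC1, a scaffold that activates the kinases, was at 9.51 FPKM or less in the WT groups and at 12.7 or more in the KO groups, and rose (log2 0.74, limma adjusted p = 0.00432). The kinase LATS2, itself also a target of YAP, rose as well (0.62, limma adjusted p = 0.0143), while FRMD6, at 5.92 FPKM in WT mock and 2.61 or less elsewhere, did not pass (-0.34, limma adjusted p = 0.251). In starved against mock cells 0 of these 17 rose and 9 fell, with a median of -0.41 against -0.13 for all features. Of all features 5.83% rose and 19.4% fell there. In refed against starved cells 1 of the 17 rose and 0 fell, beside 0.773% and 0.052% of all features.

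Of 16 genes for proteins that bind YAP and TAZ outside the nucleus or turn them over, 5 rose and 0 fell in KO, 0 rose and 3 fell in starved against mock cells, and 0 passed in refed against starved cells by limma (3 at an unadjusted p under 0.05). Of all features 28.7% rose in KO and 19.4% fell with starvation, shares near those of this list. AMOTL2, which tethers YAP at junctions, rose by log2 1.19 (limma adjusted p = 0.0155), and the LATS-binding LIM proteins WTIP and AJUBA rose by 1.06 and 0.69 (limma adjusted p = 0.00871 and 0.0408). WTIP was at 2.42, 2.20 and 2.33 FPKM in WT cells and 4.84, 5.88 and 7.25 in KO, without overlap. Of 18 other nuclear partners, 15 were tested, of which 3 rose and 1 fell in KO, 0 rose and 4 fell with starvation, and 1 rose and 0 fell with refeeding. The all-feature shares were 28.7% and 4.58% in KO, 5.83% and 19.4% with starvation and 0.773% and 0.052% with refeeding. The largest differences among those at 5 FPKM or more were those of JUN (-0.60) and FOSL1 (0.37), AP-1 subunits that did not pass, and of the co-activator NCOA3, which rose (0.36, limma adjusted p = 0.0164). The others that rose were HNF4A (1.11, limma adjusted p = 0.00724) and RUNX2 (0.86, limma adjusted p = 0.0131), both below that level in every group. SMAD3 fell (-0.31, limma adjusted p = 0.0193). FOSL1 was at 18.6 and 203 FPKM in starved and refed WT cells and 25.9 and 216 in KO.

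Of 23 YAP/TEAD targets, 21 were tested, and 3 rose and 2 fell in KO, with a median of 0.00 against 0.16 for all features, of which 28.7% rose and 4.58% fell. Those that rose were AMOTL2, LATS2 and DOCK5 (log2 0.78, limma adjusted p = 0.00403). Those that fell were NT5E (-1.12, limma adjusted p = 0.0157) and IGFBP3 (-0.45, limma adjusted p = 0.0183). The mock level of CTGF was 62.3 FPKM in WT cells and 1.34 in KO, and ANKRD1 reached 34.2 FPKM in mock WT cells, against 0.169 or less in the other 5 groups, including WT refed. Neither passed (limma adjusted p = 0.0826 and 0.296), and the WT mock value of both stands beside the endothelial markers. For CTGF the refed columns differed too, at 64.0 FPKM in WT against 5.09 in KO. There CDH5, PECAM1 and VWF were at 0.151 FPKM or less, while EGFL7 was at 44.2 in WT and 65.1 in KO and ESAM at 3.69 and 4.33. The part of the endothelial markers' source in the CTGF values was not tested. With starvation 1 of the 21 targets rose and 3 fell (5.83% and 19.4% of all features), and with refeeding 3 rose and 0 fell (0.773% and 0.052%). Counts of the 4 lists overlap, since AMOTL1, AMOTL2, PTPN14 and LATS2 are in more than 1 list.

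WWTR1 was the only gene of the set that was at 5 FPKM or more in a group and differed at least 2-fold between its highest and lowest group. Among 1626 genes meeting the same conditions, those with the most similar pattern over the 6 groups, by Pearson correlation of log2(FPKM + 1), were LIX1L (0.9971), ADAM19 (0.9970) and LOC100506844 (0.9966). LIX1L was at 5.23, 2.82 and 2.88 FPKM in WT mock, starved and refed cells and 2.09, 1.34 and 1.33 in KO. ADAM19, a membrane metalloprotease, was at 7.94, 4.83 and 4.57 in WT and 3.60, 2.25 and 2.43 in KO. With 6 points that share the WT mock column, such values describe these columns only.

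Several of the genes overlap others on the opposite strand in the GENCODE annotation, and whether the counting used the strand is not given in the sources used here. The antisense gene WWTR1-AS1 was at 0.116 to 0.228 FPKM, against 4.61 or more for WWTR1. ATG7, which overlaps VGLL4, was at 2.92 to 3.32 FPKM in all groups and differed little between genotypes. CD37 and DKKL1, which overlap TEAD2, were at 1.26 FPKM or less.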

How the data were processed

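The deposited files were 6 tables, 1 per group, of FPKM computed by the authors. Per the submitters' processing notes, reads were checked with FastQC, trimmed with cutadapt and aligned to hg19 with TopHat2; versions, the program that computed FPKM and its annotation are not given in the sources used here. Columns summed to 444437 to 593740 FPKM without short RNA features (481036 to 1149307 with them, highest in WT mock), and 12170 to 12648 features were at 1 FPKM or more. The files hold no read counts, so depth is unknown and no counting interval is given.

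Features below 1 FPKM in every group were left out; for the other 13456, log2(FPKM + 1) was fitted in limma 3.58.1 (R 4.3.3) with genotype and culture state as additive terms and a variance trend. P-values were adjusted by Benjamini-Hochberg over all features (threshold 0.05), with 13 alternatives each for KO against WT and refed against starved and 12 for starved against mock. The script was tested on simulated data. "Rose" and "fell" mark genes past the threshold. Single groups were compared without a test. Python 3.11.15, numpy 2.4.6, pandas 2.3.3 and matplotlib 3.10.9 were used. The 9 genes, the lists and the markers were chosen with earlier results of these data known. Named from each list were the 3 largest KO-to-WT differences at 5 FPKM or more, with KDM3A, CTGF, CYR61 and ANKRD1, and the 3 genes closest in pattern to any of the 9 that reached 5 FPKM and varied 2-fold. The YAP/TEAD targets and the other nuclear partners that passed in KO against WT were named as well. The lists were Hippo kinases and adaptors, cytoplasmic binders and turnover, other nuclear partners and YAP/TEAD targets, with epithelial, endothelial, fibroblast and leukocyte markers.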

Additional observations from a re-analysis of the deposited data

Results flagged for a closer look

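The responses of 3 genes had opposite signs in WT and KO. With 1 value per group these differences were not tested. VGLL4 responded to starvation by -0.09 in WT and 0.39 in KO on the log2(FPKM + 1) scale, a difference of 0.48 between genotypes. From mock to refed it differed by -0.08 in WT and 0.35 in KO, a difference of 0.43, and from starved to refed by 0.01 and -0.04, a difference of -0.05. Both larger differences use the WT mock and KO mock columns. VGLL4 was at 21.8 FPKM in KO mock against 28.9 and 28.1 in KO starved and refed cells. In WT mock, starved and refed cells it was at 15.6, 14.6 and 14.7 FPKM. TEAD1 differed from starved to refed by 0.07 in WT and -0.08 in KO, a difference of -0.15. YAP1 differed from mock to refed by 0.14 in WT and -0.05 in KO, a difference of -0.19.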

How the results depend on the processing

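For KO against WT, 5 of the 7 tested genes passed, beside 33.3% of all features. After median-ratio rescaling 3 passed (2 rose, 1 fell), beside 23.1% of all features. After upper-quartile rescaling 4 passed (2 rose, 2 fell), beside 23.6%, with TEAD2 in and YAP1 and TEAD1 out. Leaving out 1 column gave 0 to 4, with 4 without either mock column, where 42.5% of all features passed. For starved against mock 3 passed, 0 without the filter on low values, where only 7 of 23412 features (0.0299%) passed, and 0 to 1 with 1 column left out, where 0 to 31.3% of all features passed. For refed against starved the count was 0 in every alternative. Without the filter the KO count was also 5, beside 13.2% of all features, with VGLL1 in (0.56, limma adjusted p = 0.0399) and TEAD1 out (0.24, limma adjusted p = 0.0872). With any 1 column left out, a mock column included, 1 residual degree of freedom remained. The cause of the differing counts was not tested. Signs turned only in differences that had not passed. For KO against WT, TEAD2 (-0.04) was 0.07 without both mock groups, an alternative chosen after seeing the data, and -0.10 to 0.07 with 1 column left out; TEAD3 was -0.02 after upper-quartile rescaling. For starved against mock, TEAD3 was 0.10 (median-ratio) and 0.08 (upper-quartile rescaling) and -0.10 to 0.02 with 1 column left out, and VGLL4 -0.08 to 0.38. For refed against starved, TEAD1 was 0.00 after median-ratio rescaling and TEAD4 -0.01 after upper-quartile rescaling; with 1 column left out TEAD1 was -0.08 to 0.07, TEAD2 -0.04 to 0.14, TEAD4 -0.01 to 0.07, VGLL4 -0.14 to 0.12 and WWTR1 -0.01 to 0.21. Over all features, KO against WT gave 3867 rises and 616 falls as deposited and 1651 and 1454 after median-ratio rescaling. No paired analysis was possible because each group has 1 column that carries no replicate number.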
